A study of Homo sapiens with 12 samples.

Results

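Replication-dependent histone genes encode the linker histone H1 and the core histones H2A, H2B, H3 and H4 that package DNA as it is copied. They were taken as every gene whose older RefSeq symbol starts with HIST1H, HIST2H, HIST3H or HIST4H, which gave 90 genes, of which 71 are protein-coding and 19 are pseudogenes. Of these, 86 were matched to an identifier among the 60483 genes of the total RNA table. The matched set held 67 protein-coding genes, with 6 in class H1, 15 in H2A, 18 in H2B, 13 in H3 and 15 in H4. H2AC18, H2AC19, H3C2 and H3C3 were not matched and have no total RNA value here. The gene that the rule calls H4-16 is listed as H4C16.

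The libraries came from HEK293, an established human embryonic kidney line, in which DIS3L2 variants were made by the Flp-In T-REx system. DIS3L2 is a cytoplasmic 3′ to 5′ exoribonuclease that prefers RNA with an added uridine tail. The WT group produced recoded, C-terminally FLAG-tagged wild-type DIS3L2 and the mut group its catalytic mutant, and the study set out to examine what DIS3L2 does across the transcriptome. In both groups the same construct carried sh-miRNAs against the endogenous DIS3L2 mRNA, and both received doxycycline at 100 ng/ml for 3 days. Each group had 3 total RNA libraries, depleted of rRNA and strand-specific, and 3 small RNA libraries, treated with TAP and selected for inserts of 20 to 200 nt. Parental or uninduced cells were not analysed here, and no label says whether a line was a single clone or whether replicates were separate cultures. The p-values below therefore weigh a difference against the spread among these 3 libraries per group, whose source may be technical.

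Most mRNAs end in a poly(A) tail, but replication-dependent histone mRNAs end in a conserved stem-loop. NPAT and CASP8AP2 (FLASH) promote their transcription in S phase, the U7 snRNP guides the cut that forms the 3′ end, and the stem-loop binding protein SLBP stays on the mRNA through its life. When DNA synthesis stops, the 3′ end is trimmed and oligouridylated and the mRNA is degraded. The genes lie in clusters, the largest on chromosome 6p22 in a pair of blocks, with smaller clusters at 1q21 and 1q42, and H4C16 alone at 12p12. Many H2A and H2B genes stand head to head and share the DNA between their starts.

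Promoter letters differ between the classes. RefSeq windows of assembly GRCh38.p14, from 250 nt before to 50 nt after the gene start, were held for 66 of the 90 genes. The CCAAT box, searched on both strands as CCAAT, was found in 84.8% of the histone windows and in 35.7% of all 27305 windows. It was in 100% of the H1, H2A, H2B and H3 windows and in 23.1% of the H4 windows. The letters TATAAA were in 66.7% of the histone windows and 12% of all windows. The octamer ATTTGCAT was in 68.8% of the H2A and 77.8% of the H2B windows, in 0 of the 6 H1 and 0 of the 13 H4 windows, and in 1.8% of all windows. The H1 box, searched as AAACACA, was in all 6 H1 windows and in 5.76% of all windows. Matches on the 2 strands may overlap, as TATAAA can with its reverse complement, and each was counted.

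The stretches below belong to the genes whose values stood apart, with H2AC11 as the H2A gene of highest level for comparison. Capitals mark matches to the 4 motifs on either strand. H2AC11, H2AC16, H1-3 and H2BC10 are shown by the 250 nt before their start, at chr6:27132793-27133042 (plus strand), chr6:27865067-27865316 (plus strand), chr6:26234988-26235237 (minus strand) and chr6:26272681-26272930 (plus strand). H2AC15 is shown by the 193 nt between its start and that of H2BC15, at chr6:27838376-27838568, read on the minus strand towards H2AC15.
H2AC11: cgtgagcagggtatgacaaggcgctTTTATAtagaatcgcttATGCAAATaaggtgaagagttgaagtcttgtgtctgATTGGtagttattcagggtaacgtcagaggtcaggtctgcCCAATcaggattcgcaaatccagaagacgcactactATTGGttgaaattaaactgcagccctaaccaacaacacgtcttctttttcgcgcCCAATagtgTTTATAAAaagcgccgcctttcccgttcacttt
H2AC15: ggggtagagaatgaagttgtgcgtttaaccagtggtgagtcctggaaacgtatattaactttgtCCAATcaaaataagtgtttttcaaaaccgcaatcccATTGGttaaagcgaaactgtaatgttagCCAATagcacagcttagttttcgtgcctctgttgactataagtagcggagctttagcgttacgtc
H2AC16: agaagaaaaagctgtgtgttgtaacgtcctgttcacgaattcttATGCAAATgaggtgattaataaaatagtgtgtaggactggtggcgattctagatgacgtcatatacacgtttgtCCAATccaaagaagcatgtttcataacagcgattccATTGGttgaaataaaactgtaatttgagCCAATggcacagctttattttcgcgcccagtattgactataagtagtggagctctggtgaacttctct
H1-3: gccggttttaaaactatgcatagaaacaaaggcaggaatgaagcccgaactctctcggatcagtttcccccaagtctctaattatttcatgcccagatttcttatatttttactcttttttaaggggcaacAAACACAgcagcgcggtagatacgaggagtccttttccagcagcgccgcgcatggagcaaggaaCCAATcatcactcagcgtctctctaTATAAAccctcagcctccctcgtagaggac
H2BC10: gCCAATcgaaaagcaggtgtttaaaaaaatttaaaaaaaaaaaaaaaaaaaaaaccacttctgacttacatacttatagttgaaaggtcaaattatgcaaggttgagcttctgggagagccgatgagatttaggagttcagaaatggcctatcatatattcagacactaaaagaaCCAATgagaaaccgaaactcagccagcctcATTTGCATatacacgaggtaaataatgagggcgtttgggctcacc
The stretch of H2AC11 held 4 CCAAT boxes, 3 TATAAA matches and 1 octamer. The stretch shared by H2AC15 and H2BC15 held 3 CCAAT boxes and 0 matches to TATAAA or the octamer. That of H2AC16 held 3 CCAAT boxes and 1 octamer, that of H2BC10 2 CCAAT boxes and 1 octamer, and that of H1-3 1 CCAAT box, 1 TATAAA match and 1 H1 box.

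Gene counts per total RNA library ranged from 8315986 to 12675042, and small RNA library totals from 493314 to 1219718 fragments. DIS3L2 stood at 1143.6, 1040.3 and 1091.2 CPM in mut and 763.4, 813.3 and 776.8 CPM in WT (log2FC, the log2 fold change of mut over WT, 0.48, SE 0.05, edgeR adjusted p = 1.9e-07), which does not separate the recoded from the endogenous transcript and does not check which variant was made. CPM are gene counts scaled to library depth, here on library sizes adjusted by TMM. Reads outside any gene made up 12.3% to 13.7% of all deposited reads in mut and 16.6% to 19.4% in WT. Reads set aside as ambiguous between genes made up 8.6% to 9.86% in mut and 6.9% to 8.28% in WT. The part of these differences in the results was not tested. Of 10 markers of HEK293 cells, 8 passed the filter on low counts, and NEFM and PAX2 did not. Of the 8, 6 were called higher in mut, and DESeq2 kept 5 of these calls, without KRT8 (DESeq2 adjusted p = 0.057). The summed level of the 10 was 1994 to 2127 CPM in mut and 1651 to 1807 CPM in WT. Of 6 blood markers none passed, 3 were at 0 in every library and their sums did not exceed 0.49 CPM. Of 7 fibroblast markers, COL1A1 and COL3A1 passed and were called higher (COL1A1 not in DESeq2, adjusted p = 0.12). COL3A1 reached the filter level of 1.12 CPM only in mut, at 1.45, 1.53 and 1.15 CPM beside 0.31, 0.31 and 0.37 CPM in WT. No direction is read from its call. Of the 7 markers 3 were at 0, and sums were 3.33 to 5.25 CPM in mut and 1.60 to 2.51 CPM in WT. None of 3 endothelial or 3 hepatocyte markers passed.

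Histone transcripts took a larger part of the counts in mut. Their share of all gene counts was 1.84%, 1.802% and 1.83% in mut replicates 1 to 3 and 1.45%, 1.54% and 1.496% in WT replicates 1 to 3, so every mut library was above every WT library. The counting assigned no read with several alignments, and such reads made up 30.5% to 42.03% of all deposited reads, so values of near-identical histone copies are uncertain. In whole cultures, a larger share of cells in S phase and more histone mRNA per cell cannot be told apart.

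Of the 86 genes, 49 had enough counts to be tested, and 37 did not. In mut 32 of the tested genes were higher, 2 lower and 15 passed in neither direction (edgeR quasi-likelihood test, Benjamini-Hochberg adjusted p under 0.05 over 14409 genes). Over all genes tested, 13% were called higher and 14.2% lower. DESeq2 called 29 histone genes higher and 2 lower, against 9.13% and 9.42% of all genes. The median log2 fold change of the histone genes was 0.33, or 1.25-fold, beside -0.01 over all genes, and 45 of the 49 values were above 0. All 3 mut libraries lay above all 3 WT libraries for 35 histone genes and below them for 2, against 19.4% and 21.2% of all genes. The filter could favour genes high in 1 group: 47 of the 49 stood at or above its level of 1.12 CPM in all 6 libraries, and the exceptions were H2AC14 and H2BC3, neither of which passed the test.

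The changes were mostly small. The log2 fold change lay between 0 and 0.5 for 37 of the 49 genes and was 0.5 or more for 8. Against a 1.5-fold change 2 histone genes, H2AC15 and H1-3, were called higher and 0 lower, where 0.576% of all genes were called higher and 0.403% lower. Spearman's rho between log2 fold change and mean CPM was -0.09 over the 49 genes, which share libraries and span a 2119-fold range of mean CPM. Of the 40 genes above 10 CPM 31 were called higher, and of the 9 at or below it 1 was. Histone genes are short, and when the trend of each library with gene span was removed, their median log2 fold change was 0.16, with 23 higher and 2 lower, and 13.7% and 14.1% of all genes called.

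**Figure D1:**
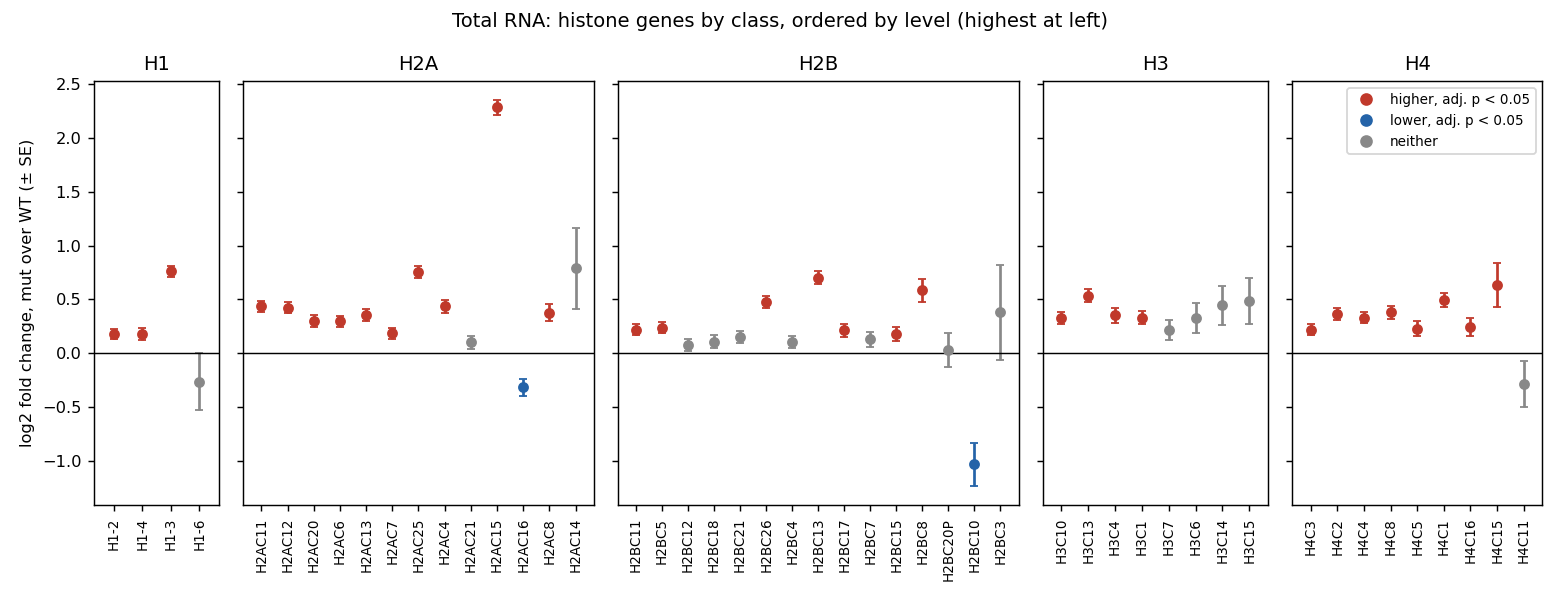
Log2 fold change of mut over WT for the 49 tested histone genes in total RNA, by class and ordered from the highest mean CPM on the left. Points are edgeR estimates with their SE, red for the 32 called higher, blue for the 2 called lower and grey for the 15 others; most points lie between 0 and 0.5, with H2AC15 far above and H2BC10 and H2AC16 below.

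The summed level of every class was higher in each mut library than in each WT library. The sums get no test, because the genes were chosen with results of these data known. The H2A sum was 4952, 4954 and 4817 CPM in mut and 3573, 3784 and 3719 CPM in WT, a ratio of 1.33. Without H2AC15 that ratio was 1.29. The H3 sum was 1267, 1251 and 1279 CPM in mut and 910.3, 1014 and 967.5 CPM in WT, a ratio of 1.31. These H2A and H3 ratios were above those of the other classes. The H4 sum was 2810, 2750 and 3007 CPM against 2268, 2383 and 2297 CPM, a ratio of 1.23. The H1 sum was 4227, 4095 and 4222 CPM against 3395, 3617 and 3691 CPM, a ratio of 1.17. The H2B sum, 5255, 4874 and 5160 CPM against 4259, 4473 and 4607 CPM, had the smallest ratio, 1.15. Whether classes differed in their ratio was not tested.

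**Figure D2:**
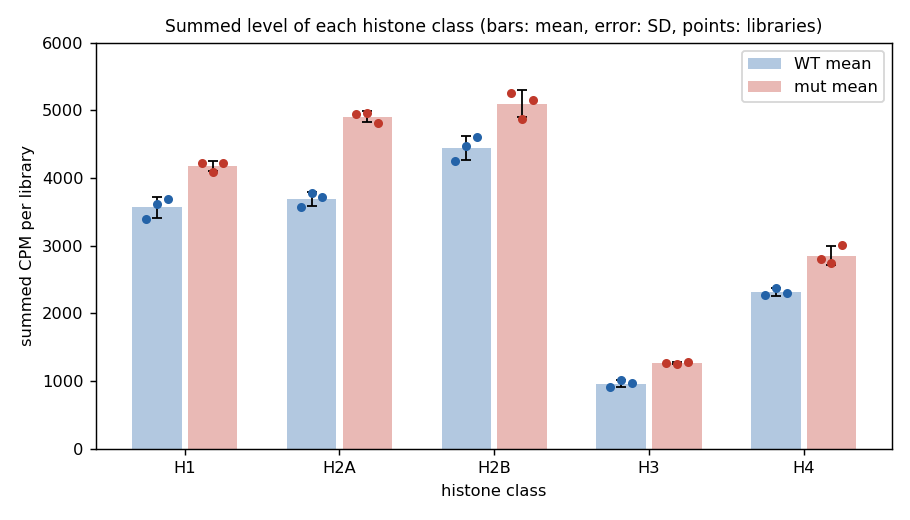
Summed CPM of the histone genes of each class per total RNA library (points), with the mean of 3 libraries (bars) and SD (error bars), WT in blue and mut in red. In each class the 3 red points lie above the 3 blue points, with mut over WT ratios from 1.15 for H2B to 1.33 for H2A.

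Linker histones H1 bind the DNA that enters and leaves the nucleosome. Of the 6 H1 genes, 4 were tested and 3 were higher. H1-2 was the histone gene of highest level per length in WT, at 2615 CPM per kb of gene span, and stood at 2164, 2122 and 2201 CPM in mut and 1835, 1954 and 1946 CPM in WT (log2FC 0.18, SE 0.05, edgeR adjusted p = 0.0063). H1-4 stood at 1608, 1537 and 1582 CPM in mut and 1299, 1400 and 1479 CPM in WT (log2FC 0.18, SE 0.05, adjusted p = 0.011). Neither gene's libraries overlapped between groups, but both calls were lost without WT replicate 1 (adjusted p = 0.061 for H1-2 and 0.12 for H1-4). With the span trend removed the adjusted p was 0.27 for H1-2 and 0.26 for H1-4.

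H1-3 (chromosome 6, 26234212 to 26234987) moved further than the other H1 genes. It stood at 452.0, 433.8 and 436.0 CPM in mut and 259.0, 259.7 and 262.2 CPM in WT, and the groups were far apart relative to their spread. Its log2 fold change was 0.76 (SE 0.05, edgeR adjusted p = 6.7e-11), with an adjusted p of 0.035 against a 1.5-fold change. H1-3 made up 10.5% of the summed H1 CPM in mut and 7.30% in WT, while H1-2 made up 51.7% and 53.6% and H1-4 37.7% and 39.0%. H1-6, the testis linker histone, was near the filter at 2.68, 1.88 and 2.18 CPM in mut and 1.76, 3.13 and 3.19 CPM in WT, and did not pass (log2FC -0.26, 95% interval -0.79 to 0.26). H1-1 had 18 counts over the 6 libraries and H1-5 had 2, and neither was tested.

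H2A pairs with H2B in the nucleosome core, and in its class 10 of 13 tested genes were higher and 1 was lower, with a median log2FC of 0.38. H2AC11 stood at 1041, 1066 and 1023 CPM in mut and 737.9, 803.4 and 770.4 CPM in WT (log2FC 0.44, SE 0.05, adjusted p = 5.3e-07). H2AC12 stood at 779.4, 786.3 and 802.5 CPM in mut and 568.1, 600.1 and 597.9 CPM in WT (log2FC 0.42, SE 0.05, adjusted p = 8.3e-07). H2AC20, in the 1q21 cluster, stood at 664.1, 660.6 and 632.6 CPM in mut and 509.6, 535.7 and 544.9 CPM in WT (log2FC 0.30, SE 0.05, adjusted p = 1.1e-04). These 3 genes of highest level did not overlap between groups.

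H2AC15 (chromosome 6, 27837880 to 27838375, minus strand) had the largest fold change of the histone genes. It stood at 202.1, 192.7 and 194.1 CPM in mut and 40.02, 41.03 and 39.81 CPM in WT, a 4.87-fold difference (log2FC 2.28, SE 0.07, edgeR adjusted p = 7.5e-20). The lowest mut library was above the highest WT library by several times the range of either group. H2AC15 made up 4.0% of the summed H2A CPM in mut and 1.09% in WT. With the span trend removed its log2 fold change was 2.12.

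H2AC15 belongs to a group of genes, H2AC11, H2AC13, H2AC15, H2AC16 and H2AC17, that encode the same H2A protein. They did not move together. H2AC13 rose by a log2 fold change of 0.36 (SE 0.05), close to the 0.44 of H2AC11. H2AC16 fell, at 52.03, 45.33 and 44.82 CPM in mut and 55.74, 60.45 and 61.31 CPM in WT (log2FC -0.32, SE 0.08, adjusted p = 0.0028). Every mut library of H2AC16 was below every WT library. H2AC17 had 1 count over the 6 libraries. Since reads with several alignments are not counted, a read common to such copies adds to none of them. Outside this group, H2AC14 stood at 2.23, 1.997 and 1.03 CPM in mut and 0.41, 1.25 and 1.35 CPM in WT and did not pass (log2FC 0.79, SE 0.38, adjusted p = 0.13).

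**Figure D3:**
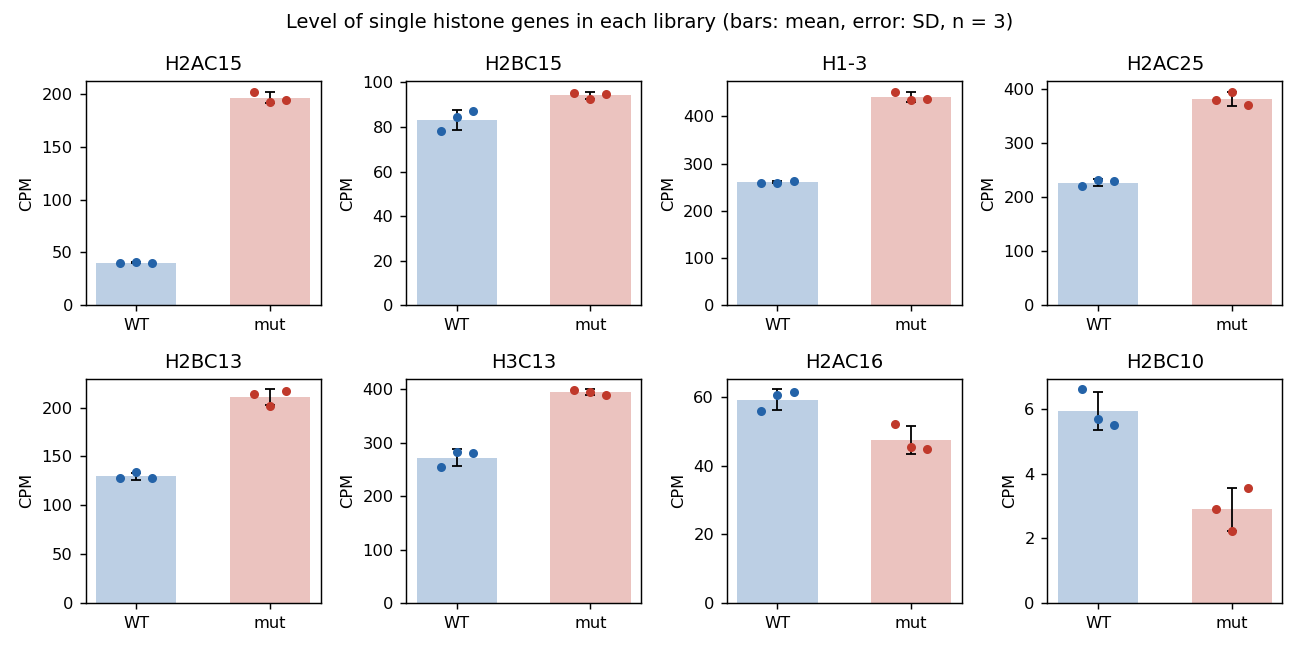
CPM of 8 histone genes in each total RNA library (points), with the mean of 3 libraries (bars) and SD (error bars); each panel has its own axis starting at 0. H2AC15 is several times higher in mut while its divergent partner H2BC15 differs little, H1-3, H2AC25, H2BC13 and H3C13 are higher without overlap, and H2AC16 and H2BC10 are lower without overlap.

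The H2B protein wraps DNA together with H2A, and 7 of the 15 tested H2B genes passed as higher, 1 as lower and 7 as neither, at a median log2FC of 0.18. H2BC11 stood at 950.7, 909.1 and 998.1 CPM in mut and 817.2, 813.5 and 831.3 CPM in WT (log2FC 0.22, SE 0.05, adjusted p = 0.0025). H2BC5 stood at 883.1, 845.9 and 894.9 CPM in mut and 705.0, 755.5 and 765.0 CPM in WT (log2FC 0.24, SE 0.05, adjusted p = 0.0012). Both were separated between groups, and the call of H2BC11 was lost with the span trend removed (adjusted p = 0.48). H2BC12 stood at 863.3, 801.0 and 820.5 CPM in mut and 737.7, 785.6 and 834.1 CPM in WT, which overlapped, with a log2 fold change of 0.08 (95% interval -0.03 to 0.18, adjusted p = 0.32).

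H2BC13 rose more than the rest of its class, at 213.6, 201.8 and 216.7 CPM in mut and 127.4, 133.6 and 127.8 CPM in WT (log2FC 0.70, SE 0.06, adjusted p = 2.2e-09). H2BC10 (chromosome 6, 26272931 to 26273412) was the only other histone gene besides H2AC16 that passed as lower. Its level was low, at 2.90, 2.23 and 3.56 CPM in mut and 6.62, 5.72 and 5.53 CPM in WT, and no mut library reached a WT library (log2FC -1.03, SE 0.20, adjusted p = 3.5e-04). With the span trend removed its log2 fold change was -1.19. H2BC15 stood at 95.47, 92.43 and 94.80 CPM in mut and 78.28, 84.34 and 86.99 CPM in WT (log2FC 0.18, SE 0.07, adjusted p = 0.042). The call of H2BC15 was lost in DESeq2 (adjusted p = 0.074), with the span trend removed (0.74), and without WT replicate 1 (0.23), among other settings. H2BC20P, the only pseudogene tested, had a log2 fold change of 0.03 (95% interval -0.28 to 0.34).

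H3 and H4 form the tetramer at the centre of the nucleosome. Of 8 tested H3 genes 4 passed as higher and 0 as lower at a median log2FC of 0.34, and the lowest value, that of H3C7, was 0.22. H3C10 stood at 410.3, 418.0 and 417.8 CPM in mut and 318.2, 344.9 and 331.1 CPM in WT (log2FC 0.33, SE 0.05, adjusted p = 6.9e-05). H3C13 stood at 399.6, 395.0 and 388.8 CPM in mut and 253.7, 282.6 and 280.1 CPM in WT (log2FC 0.54, SE 0.06, adjusted p = 1.2e-07), the largest change of the class. H3C4 stood at 209.8, 205.8 and 218.0 CPM in mut and 147.3, 183.9 and 165.0 CPM in WT (log2FC 0.35, SE 0.07, adjusted p = 3.7e-04). The RefSeq span of H3C4 holds that of H2AC7 on the same strand, so the assignment of reads there is uncertain. The values of H3C10, H3C13 and H3C4 did not overlap between groups. H3C7, at 24.57, 24.55 and 25.97 CPM in mut and 22.85, 21.46 and 20.15 CPM in WT, was separated too but did not pass (adjusted p = 0.081).

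Of 9 tested H4 genes 8 passed as higher and 0 as lower at a median log2FC of 0.33. H4C3 stood at 875.5, 874.7 and 944.7 CPM in mut and 779.7, 774.9 and 764.4 CPM in WT (log2FC 0.22, SE 0.05, adjusted p = 0.0023, and 0.72 with the span trend removed). H4C2 stood at 549.9, 542.7 and 572.8 CPM in mut and 414.8, 453.9 and 422.2 CPM in WT (log2FC 0.37, SE 0.05, adjusted p = 1.6e-05). H4C4 stood at 465.8, 452.0 and 475.7 CPM in mut and 366.4, 376.1 and 367.1 CPM in WT (log2FC 0.33, SE 0.05, adjusted p = 4.4e-05). The groups were separated for all 3.

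The remaining named H4 genes were less firmly counted. H4C15 stood at 6.14, 5.99 and 3.91 CPM in mut and 3.41, 3.13 and 3.93 CPM in WT, which overlapped, with a log2 fold change of 0.63 (SE 0.20, adjusted p = 0.022). That call was lost in DESeq2 (adjusted p = 0.098) and without mut replicate 1 (0.10), mut replicate 2 (0.077), WT replicate 1 (0.054) or WT replicate 2 (0.078). H4C11 stood at 2.79, 3.41 and 3.91 CPM in mut and 3.52, 3.92 and 5.04 CPM in WT and did not pass (log2FC -0.28, 95% interval -0.70 to 0.13). With the span trend removed, 1 H1, 9 H2A, 4 H2B, 4 H3 and 5 H4 genes were called higher, with median log2 fold changes of 0.07, 0.22, 0.05, 0.29 and 0.14.

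Among genes whose strand was held, an H2A gene and an H2B gene stood head to head in 11 pairs, with starts 194 to 248 nt apart. Of these pairs, 8 had both genes tested. In 5 of the 8 both genes were called higher and in 3 only the H2A gene was, though a call in 1 gene alone does not show that the 2 differ. The H2A gene had the larger log2 fold change in 6 of 8, with medians of 0.37 for H2A and 0.20 for H2B. The exceptions were H2AC8 with H2BC8, at 0.38 and 0.58, and H2AC13 with H2BC13, at 0.36 and 0.70. In H2AC15 with H2BC15, which share the 193 nt printed above, the values were 2.28 and 0.18, the only pair that differed by more than 1. The difference within pairs was not tested. The strand of H2AC12, which lies beside H2BC12, was not held, so these genes could not be counted as a pair. Their log2 fold changes, 0.42 and 0.08, are therefore left out of the pair counts and medians.

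**Figure D4:**
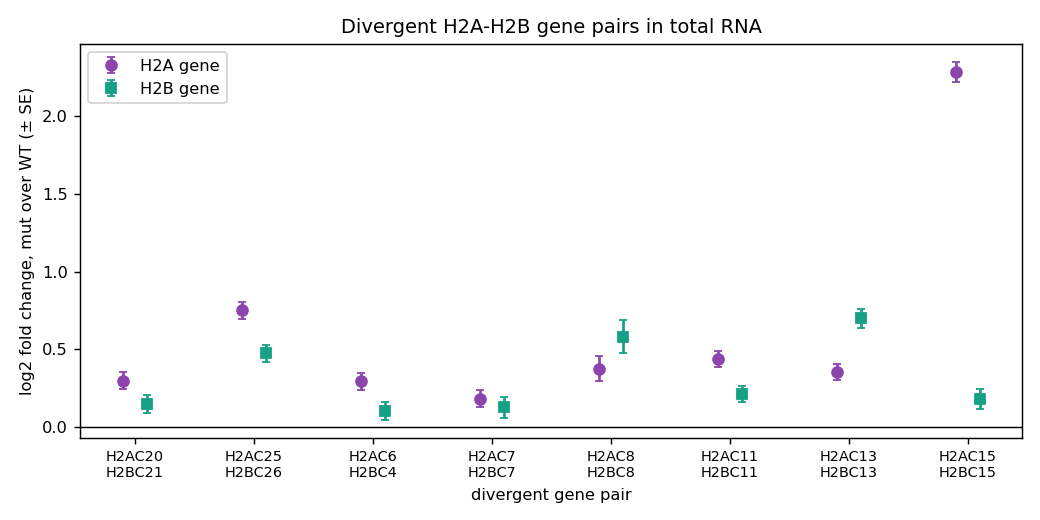
Log2 fold change of mut over WT in total RNA, with SE, for the 8 divergent pairs with both strands held and both genes tested. H2A genes are circles and H2B genes are squares, and H2AC12 with H2BC12 is left out because the strand of H2AC12 was not held. In 6 of 8 pairs the circle is above the square, and the pair of H2AC15 and H2BC15 is the only one more than 1 apart.

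By cluster, 17 of 24 tested genes in the first 6p22 block were higher and 1 lower, with a median log2FC of 0.31. In the second block 9 of 13 were higher and 1 lower (median 0.33), and at 1q21 3 of 9 were higher with a median of 0.30. Non-histone protein-coding genes inside the same clusters or within 1 Mb of them had other medians, with no test of the difference, -0.09 over 26 genes at 6p22 (1 higher, 3 lower) and -0.04 over 21 genes at 1q21 (2 higher, 2 lower). At 1q42 most of the neighbours tested were higher too. H2AC25 stood at 380.5, 395.1 and 370.1 CPM in mut and 219.95, 230.9 and 229.9 CPM in WT (log2FC 0.75, SE 0.06, adjusted p = 1.7e-10). H2BC26 stood at 339.9, 319.7 and 334.3 CPM in mut and 230.6, 239.9 and 244.3 CPM in WT (log2FC 0.48, SE 0.06, adjusted p = 5.7e-07). Both were far above WT in every mut library, and 14 of the 17 neighbours tested at 1q42 were higher and 0 lower, with a median log2FC of 0.49. The part of this regional difference in the values of H2AC25 and H2BC26 was not tested. Without the 1q42 genes, 30 of 47 histone genes were called higher and 2 lower (median 0.30).

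H4C16 at 12p12 stood at 83.74, 83.74 and 108.0 CPM in mut and 72.39, 82.85 and 77.65 CPM in WT (log2FC 0.24, SE 0.08, adjusted p = 0.033). The groups were separated, but mut replicates 1 and 2 lay close to WT replicate 2, and the call was lost without mut replicate 3 (adjusted p = 0.29), WT replicate 1 (0.16) or WT replicate 3 (0.066), in DESeq2 (0.062) and with the span trend removed (0.66). Its 5 tested neighbours, leaving out the variant histone gene H2AJ, had a median log2 fold change of -0.19, with 0 higher and 2 lower.

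**Figure D5:**
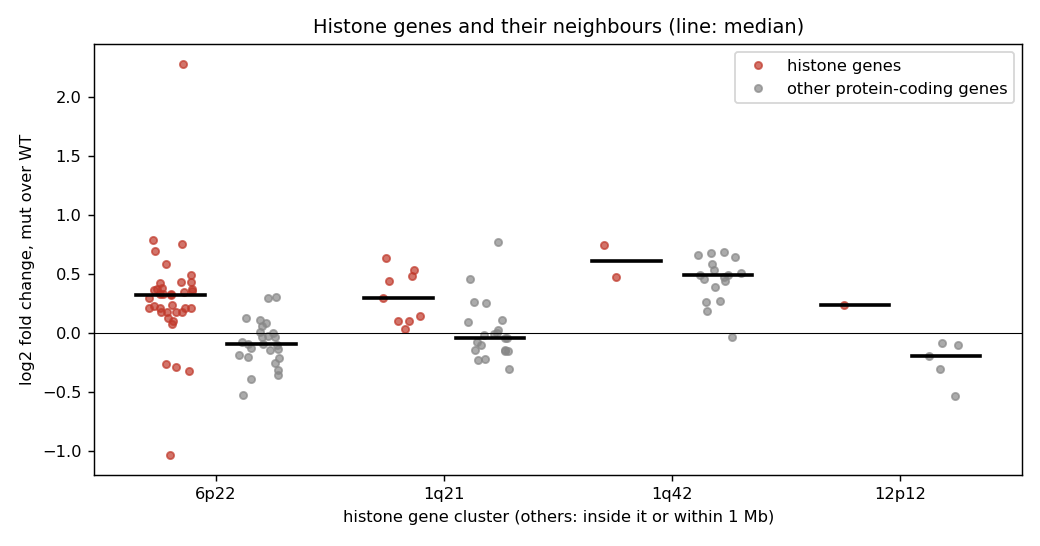
Log2 fold change of mut over WT for tested histone genes (red) and other protein-coding genes inside the cluster or within 1 Mb (grey), by cluster, with the median as a line. At 6p22 and 1q21 the grey medians lie just below 0 and the red ones near 0.3, while at 1q42 both are well above 0.

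Of the 37 histone genes not tested, 19 are protein-coding and 18 are pseudogenes, and 13 had no count in any library (4 protein-coding, 9 pseudogenes). The highest total was 70 counts over the 6 libraries, 37 in mut and 33 in WT, for H4C14, a near-identical copy of H4C15, to which RefSeq gives a span of 16753 nt. H2AC1 had 12 counts in mut and 3 in WT and H3-4 had 7 and 1, and no direction is given for either.

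The lists that follow are read against the 13% of all genes called higher and the 14.2% called lower. Of 8 tested genes for histone gene transcription 1 was higher and 2 were lower, counts too small to set apart from those shares, with a median log2FC of -0.05. NPAT, the coactivator of histone genes, stood at 38.86, 48.03 and 39.87 CPM in mut and 56.26, 50.90 and 57.75 CPM in WT (log2FC -0.37, SE 0.08, adjusted p = 0.0015), and CASP8AP2 had a log2 fold change of -0.41 (SE 0.08, adjusted p = 5.0e-04). E2F1, an activator of S-phase genes, had 0.35 (SE 0.07, adjusted p = 3.4e-04). Of 21 genes for 3′ end formation and SLBP partners 9 were higher and 1, the cap-binding protein gene NCBP2, was lower, with a median of 0.02. DESeq2 kept 4 of the 9 higher calls (SNRPE, SNRPG, SYMPK and SRRT) and not those of ZNF473, SNRPB, CDK9, MIF4GD and CTIF, and NCBP2 was lost as well (DESeq2 adjusted p = 0.061), which leaves 0 lower. SNRPE and SNRPG, which encode Sm proteins common to the U7 and spliceosomal snRNPs, had log2 fold changes of 0.42 and 0.29, and SYMPK, a scaffold of the cleavage complex, had 0.28. SLBP itself stood at 97.14, 92.55 and 91.47 CPM in mut and 93.79, 89.74 and 77.78 CPM in WT, which overlapped (log2FC 0.10, SE 0.07, adjusted p = 0.30).

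Of 21 genes for histone mRNA decay 2 were higher and 4 lower (9.52% and 19.0%, near the 13% and 14.2% of all genes), with a median log2FC of -0.07. In DESeq2 the call of MTPAP was lost, which leaves 3 lower. The terminal uridylyltransferase genes TUT7 (log2FC -0.53, SE 0.09, adjusted p = 9.8e-05) and TUT4 (-0.34, SE 0.07, adjusted p = 6.1e-04) fell, as did SMG1, a kinase of RNA surveillance (-0.29, SE 0.07, adjusted p = 0.0026). Of 11 tested variant histone genes, which are transcribed outside S phase as well and mostly end in poly(A), 3 were higher and 0 lower (median 0.11). H2AZ1 had a log2 fold change of 0.21 (SE 0.05, adjusted p = 0.0034), H3-3A 0.33 (SE 0.09, adjusted p = 0.0081) and H2AX, whose mRNA can also end in a stem-loop, 0.19 (SE 0.07, adjusted p = 0.032). H3-3B, at 0.13 (SE 0.05), did not pass (adjusted p = 0.065).

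Genes of the cell cycle and of histone handling were mixed. Of 38 genes for DNA replication 13 were higher and 1 lower (34.2% and 2.63%, beside 13% and 14.2% of all genes), with a median log2FC of 0.08. DESeq2 kept 12 of the higher calls, without CDC45, and the 1 lower call. MCM2, a helicase subunit, had 0.34, the thymidylate synthase gene TYMS 0.44 and the polymerase gene POLE 0.36. Of 20 genes of mitosis 1 was higher and 6 were lower (5% and 30%, median -0.08), and in DESeq2 4 were lower, without TOP2A and ANLN. The kinesin gene CENPE had -0.84, the proliferation marker MKI67 -0.33 and the cyclin gene CCNB1 0.39. Of 20 histone chaperone genes 2 were higher and 5 lower (10% and 25%, median -0.02). The remodeler gene ATRX had -0.58, RBBP7 -0.37 and the FACT subunit gene SUPT16H -0.37. Each gene named here passed the test in the direction of its value, and the part of the replication genes in the histone values was not tested.

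The small RNA libraries gave a second measure that the choice of histone genes did not use. Their inserts of 20 to 200 nt are shorter than the protein-coding histone genes. Their values therefore count pieces of RNA, unlike the total RNA values, and do not measure whole histone mRNAs. Of 4794 loci that the authors reconstructed from small RNA reads, 51 overlapped 39 histone genes, 45 in the sense direction, 3 antisense and 3 over a gene whose strand was not held. Of these, 11 were among the 589 loci with enough fragments to be tested, and none was called higher or lower in edgeR (0 at an unadjusted p under 0.05, 0 in limma at either threshold). Of all 589 loci 0.17% were called higher and 0% lower. The 11 log2 fold changes lay between -0.46 and 0.26, with a median of 0.05 and a median SE of 0.37, and the groups overlapped in every one of these loci, whereas 4.92% of all loci were separated with mut above and 6.62% with mut below. An SE of that size means that a change as small as that of most histone genes in total RNA was not detectable at this depth.

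The most covered histone locus lay over H3C2 (chromosome 6, 26031593 to 26032152), a gene with no total RNA value here, with 42, 76 and 43 fragments in mut and 39, 41 and 33 in WT. Scaled to library depth these were 68.6 ± 14.7 FPM (fragments scaled to depth) in mut and 71.7 ± 13.8 in WT (SD, n = 3), with a log2 fold change of -0.08 (SE 0.28). Over H1-2 there were 29, 74 and 17 fragments in mut and 11, 18 and 35 in WT, and the log2 fold change was 0.22 (SE 0.37). Neither differed beyond the spread between libraries. Mut replicate 3 stood apart from the other small RNA libraries, and without it the histone loci also gave 0 calls.

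Of the 40 histone loci with too few fragments to test, 37 overlapped between groups and 3 had every mut library above every WT library, 2 of them over H2AC15 and 1 over H4C1. The share of separated loci among all untested loci is not given here, so these counts cannot be set against it. The H4C1 locus held 6, 14 and 11 fragments in mut and 3, 4 and 4 in WT. Scaled to depth, its groups nearly met, at 8.29 FPM in mut replicate 1 and 8.11 FPM in WT replicate 2. The longer H2AC15 locus (chromosome 6, 27837882 to 27838411) held 3, 9 and 4 fragments in mut and 1, 0 and 0 in WT. Pooled over libraries and scaled by their totals, 16 fragments in mut and 1 in WT gave a ratio of 10.4. Its exact 95% interval of 1.62 to 437 covers counting error only. Small RNA replicates differed by more than that error, and this locus is among the 3 with separated groups, so the interval is not a test. An overlapping locus on the same strand held 3, 8 and 3 fragments in mut and 1, 0 and 0 in WT, and shares fragments with the first. H2AC17, with 1 count in total RNA, held 3, 8 and 10 fragments in mut and 4, 1 and 5 in WT over its longer locus, which overlapped.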

How the data were processed

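Total RNA was measured in 6 libraries and small RNA in 6 others, 3 mut and 3 WT each. The submitters' processing notes list, with no roles, STAR 2.4.0 and HTSeq 0.6.1, CASAVA 1.8.2 and FastQC 0.11.3, and DESeq2 1.8.2 next to SAMtools 1.2-10, on build hg38. The sources used here do not give the annotation version or the strand setting of the counting. The authors deposited raw read counts per Ensembl gene for total RNA. For small RNA the deposited values are fragment counts, a depth-scaled signal (FPM) and FPKM per locus. Reads in table entries without a gene name, 57.8% to 63.2% of those deposited, were left out.

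Histone genes were found by older RefSeq symbols, and symbols by Ensembl identifier (56321 of 60483 matched). The genes and gene lists were chosen with earlier results of these data known. Total RNA counts were tested with edgeR 4.0.16 in R 4.3.3 (filterByExpr, TMM scaling, quasi-likelihood F test without a replicate term, two-sided), with Benjamini-Hochberg adjustment over 14409 genes at 0.05. Each SE is the size of the log2FC divided by the square root of F. Small RNA loci overlapping a histone gene by at least 30 nt were tested the same way within 589 loci, on the library totals behind the deposited signal, and limma 3.58.1 on log2(FPKM + 1) and DESeq2 1.42.0 were alternatives. The removal of a span trend subtracted, in each library, a loess curve (span 0.5) of log2 deviation on log10 gene span. The curve was fitted on all tested genes of known span, the histone genes included, and their weight in it was not tested. Each library counted as 1 sample. No pair of replicates agreed within sampling noise (chi-square per degree of freedom 1.87 or more), which does not show that the libraries came from separate cultures. The test was also tried on simulated counts, with changes larger than those of most histone genes, and the outcome is not given here.

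Genes named with every library's value were, per class, the 3 of highest mean CPM and those with the largest and smallest log2 fold change, every gene called lower, genes outside the 6p22 and 1q21 clusters, and divergent pairs differing by over 1. From each list the 3 genes of smallest adjusted p were named, with SLBP, NPAT, H3-3B and H2AZ1.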

Additional observations from a re-analysis of the deposited data

How the results depend on the processing

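No histone gene that passed the test changed direction under any alternative run. Of those that did not pass, H2AC21, H2BC7 and H2BC20P turned negative with the span trend removed, and H2BC20P also without mut replicate 2 or WT replicate 2. The number of histone genes called higher stayed within 1.5 times its value under other scalings, no filter, DESeq2 and removal of the span trend. Against a 1.5-fold change it was 2, with 0 lower, and over all genes 83 were higher and 58 lower. DESeq2 called 1357 of all genes lower, and without WT replicate 3 edgeR called 1274 lower. Removing the span trend took the median log2 fold change of the histone genes to 0.16. Leaving out each library in turn gave 24 to 32 histone genes higher (24 without WT replicate 1) and 2 lower each time, 1327 to 1832 of all genes higher and 1274 to 2109 lower, and a histone median of 0.27 to 0.34. The cause of these shifts was not tested.

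Replicate numbers are not stated to pair libraries, and same-numbered deviations correlated at -0.089, -0.073 and 0.032 in total RNA and 0.186, -0.122 and -0.369 in small RNA. With a replicate block, 30 histone genes were higher and 2 lower, 1675 of all genes were higher and 1845 lower, and the histone median was 0.31. The small RNA loci over histone genes gave 0 calls under every alternative, the replicate block included. Depth limits genes at or below 10 CPM and nearly all small RNA loci.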
